A study of Rattus norvegicus with 72 samples.

Results

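This account concerns 6 of the 72 libraries of the series, the cortex RNA libraries that carry the parental label maternal and the age P2 (postnatal day 2). They were chosen by their labels for tissue, parent of origin, age and genotype. Of these, 3 come from pups with a UBE3A deletion that the labels give as derived from the mother, and 3 from litter-matched wild-type pups. All were female rats, and the labels give no other allele, treatment or strain for either group. The sources used here do not say how the deletion was made, how much of the gene it removes or whether a library pools pups. A library is called labelled deletion or labelled wild-type below, because the level of Ube3a did not separate the genotypes in this group.

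Ube3a encodes an E3 ubiquitin ligase, an enzyme that attaches ubiquitin to other proteins and so marks many of them for degradation by the proteasome. In neurons the gene is imprinted. The maternal copy is expressed and the paternal copy is silenced by a long antisense transcript, whereas glia and other cells use both copies. Loss of the maternal copy in people causes Angelman syndrome, with severe developmental delay, absent speech and seizures. The comparison asks which transcripts of the newborn cortex differ when the maternally inherited copy is deleted.

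The deposited cortex table lists counts for 184444 RefSeq accessions (NM_ for mRNA, NR_ for noncoding RNA) and pairs none with a gene name. None of them is a rat accession of the reference table (0 matches), so only NM_173010, the mouse accession of Ube3a, is named as a gene here. The other accessions are given as deposited, without names or functions. Several can belong to a single gene, so the number of accessions is not a number of genes. For the same reason marker genes of the cortex and of other cell types were not analysed here. Totals ran from 1669200 to 1953233 counts per library. In these bulk samples, fewer cells of a type and less RNA per cell cannot be told apart. The labels do not say that libraries of a group come from separate pups, so the p-values reflect only how far these libraries spread, which may be technical.

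Levels of Ube3a overlapped between the genotypes, with a lower mean under the deletion label. Levels are in CPM, the count scaled to a common library size after TMM scaling (a correction for composition). The wild-type libraries had 35.9, 22.1 and 29.3 CPM of NM_173010, from 65, 43 and 60 counts. The libraries labelled deletion had 20.5, 26.8 and 20.3 CPM, from 39, 50 and 35 counts. The groups overlapped, since wild-type replicate 2 lay below deletion replicate 2. Means were 29.1 ± 6.87 CPM in wild type and 22.5 ± 3.71 CPM with the deletion label (SD, n = 3 each), and an exact two-sided permutation test gave p = 0.2, where the smallest possible p is 0.1.

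In the edgeR quasi-likelihood fit over all 24 cortex libraries, the log2 fold change of NM_173010 (deletion over wild-type) was -0.36 (SE 0.632, 95% interval -1.70 to 0.97). Its Benjamini-Hochberg adjusted p in edgeR was 0.9995. Of the other 6 cortex groups, which share the estimate of spread, 5 varied more in NM_173010, with SDs of 15.8 to 38.1 CPM. With only the 6 libraries in the fit, the edgeR log2 fold change of NM_173010 was -0.36 with a 95% interval of -0.81 to 0.10. The lower bound of that narrower interval is a 1.75-fold reduction, and that of the interval over all 24 libraries is a 3.25-fold reduction. By comparison, in hypothalamus labelled paternal at P2 the same accession, NM_173010, stood at 51.4 ± 6.11 CPM in wild type and 7.89 ± 1.41 CPM with the deletion label (SD, n = 3 each), a 6.32-fold reduction. In hypothalamus labelled maternal at P2 it stood at 56.9 ± 26.2 and 53.0 ± 19.4 CPM (SD, n = 3 each). The 2 tissues were scaled separately, so their levels are not compared. Ube3a counts thus fell in hypothalamus where the deletion is labelled paternal, and no such fall was found in either tissue at P2 where it is labelled maternal. Neither the genotype nor the parental labels of the 6 cortex libraries are backed by Ube3a counts, and each direction below holds only as far as these labels do.

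**Figure D1:**
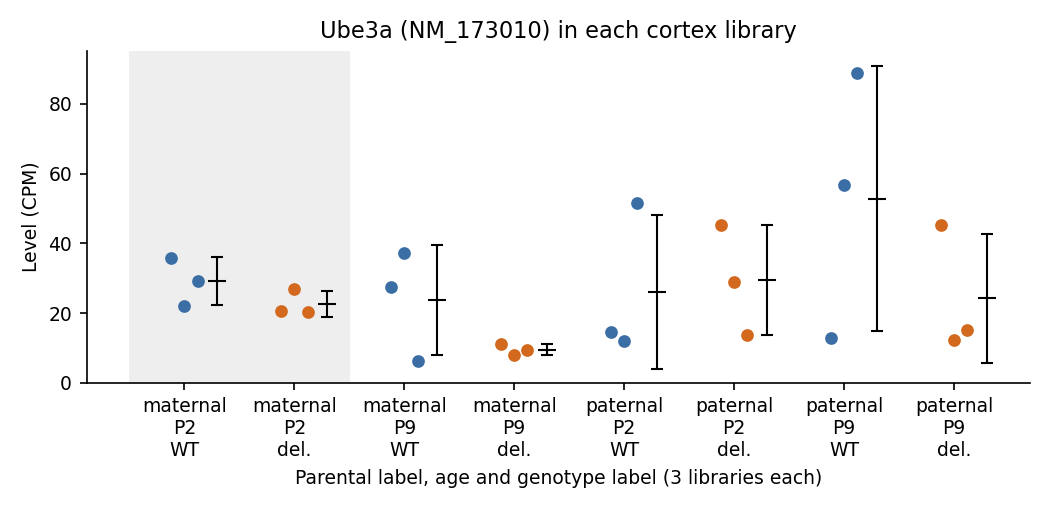
Level of Ube3a (NM_173010, in CPM) in each of the 24 cortex libraries, by parental label, age and genotype label. Blue points are wild-type (WT) and orange points deletion (del.) libraries, bars are the mean ± SD of 3 libraries, and the grey area marks the 6 libraries described here, which lie between 20.3 and 35.9 CPM and overlap between genotypes.

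Over the whole transcriptome the genotypes were close. The filter on low counts kept 8380 accessions, and these held 98.1% to 98.5% of the counts of each of the 6 libraries. After Benjamini-Hochberg adjustment of the edgeR p-values, 0 accessions passed an adjusted p of 0.05 (0%), and DESeq2's Wald test called 1 (0.0119%). Without deletion replicate 1, edgeR called 3. At an unadjusted p under 0.05 edgeR found 270 accessions (3.22%), of which 119 were higher (1.42%) and 151 lower (1.8%). Evenly spread p-values would give 419. With only the 6 libraries in the fit, edgeR found 405 of 7323 tested accessions at an unadjusted p under 0.05, 181 higher and 224 lower. The shortfall below an even spread thus belongs to the fit over all 24 libraries. The 3 deletion libraries lay wholly above the 3 wild-type libraries for 379 accessions (4.52%) and wholly below for 565 (6.74%), together 11.3%. The median log2 fold change was -0.02, with quartiles of -0.19 and 0.11.

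The precision of these values depended on the level. Accessions with a mean of under 20 counts over the 6 libraries had a median standard error of 0.43 on the log2 scale, and the 95% interval of 27.9% of them stayed within a 2-fold change in either direction. Between 50 and 200 counts the median standard error was 0.182 and 96.5% of accessions had such an interval. Above 1000 counts it was 0.105, and 95.7% of accessions had an interval within a 1.5-fold change. Over all 8380 accessions, intervals within a 2-fold change were found for 5995 (71.5%). The bounds were thus close for abundant transcripts, and reached beyond a 2-fold change for most of the 2776 accessions under 20 counts.

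**Figure D2:**
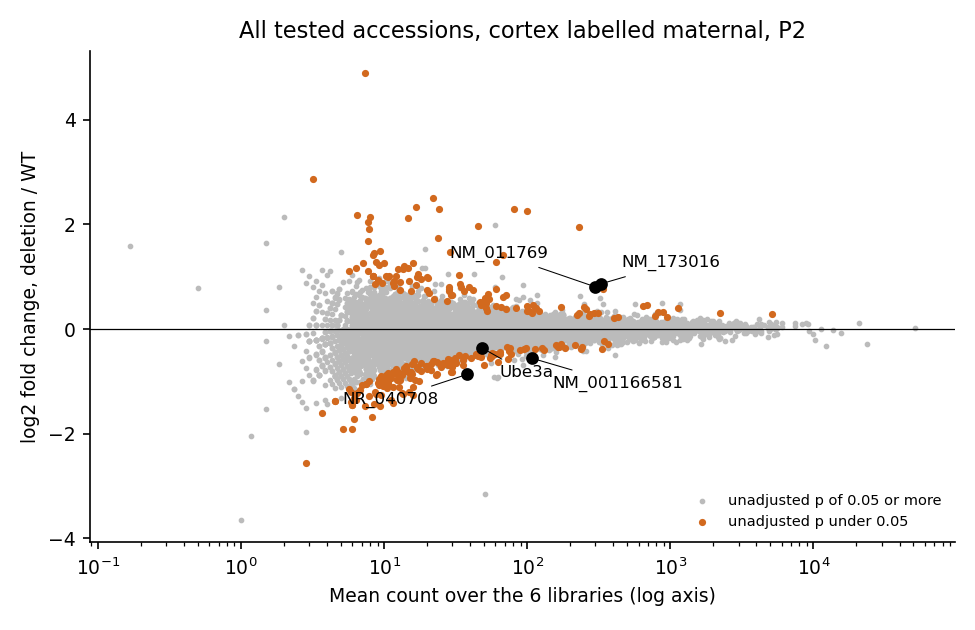
Log2 fold change (deletion over WT) of each of the 8380 tested accessions against its mean count over the 6 libraries, on a log axis. Orange marks an unadjusted edgeR p under 0.05 and black the named accessions, and the spread of fold changes narrows with rising counts.

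The accession with the lowest p was NM_173016, which was higher in every deletion library. Its wild-type libraries had 123, 120 and 131 CPM and its deletion libraries 195, 220 and 266 CPM. All 3 deletion libraries lay above all 3 wild-type libraries, and the wild-type values were tightly grouped. The log2 fold change of NM_173016 was 0.87 (SE 0.167, 95% interval 0.52 to 1.21), or 1.82-fold, and its Benjamini-Hochberg adjusted p in edgeR was 0.16. NM_173016 thus missed the threshold in the fit over all cortex libraries. It passed in DESeq2 (adjusted p = 0.00834), and in edgeR with only the 12 libraries labelled maternal (adjusted p = 0.0287) and with only the 6 libraries (adjusted p = 0.00519). It also passed in edgeR without deletion replicate 1, the lowest of the 3 (log2 fold change 0.96, adjusted p = 0.0394). With no filter on low counts it passed as well (log2 fold change 0.92, adjusted p = 9.64e-06). Without any other of the 6 libraries it did not pass (edgeR adjusted p of 0.582 or more). Nor did it pass with other scaling methods (edgeR adjusted p = 0.102 and 0.166) or at a mean of at least 20 counts (0.105). The threshold was also missed in limma (adjusted p = 0.142). In all, NM_173016 passed in 6 of 15 alternatives. Over all alternatives tried its log2 fold change ran from 0.73 to 0.96.

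NM_011769 was also higher in every deletion library. It had 124, 96.7 and 129 CPM in wild type and 234, 178 and 199 CPM with the deletion label. The groups did not overlap, and the gap between them ran from 129 to 178 CPM, wider than the range within wild type and narrower than that within deletion. The log2 fold change of NM_011769 was 0.81 (SE 0.199, 95% interval 0.39 to 1.22), or 1.75-fold, and its Benjamini-Hochberg adjusted p in edgeR was 0.9995. With only the 6 libraries its adjusted p in edgeR was 0.0316. With the 12 libraries labelled maternal it was 0.329, and with all 24 libraries and no filter on low counts it was 0.000205.

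On the lower side the differences were smaller or less precise, and no fit of the P2 comparison reported here called them. NM_001166581 had 68.4, 65.3 and 68.9 CPM in wild type and 46.7, 49.8 and 41.1 CPM with the deletion label. Its log2 fold change was -0.56 (SE 0.175, 95% interval -0.91 to -0.20), and the adjusted p of NM_001166581 over the alternatives tried ran from 0.401 to 1 in edgeR, DESeq2 and limma. NR_040708, a noncoding accession, had 23.7, 32.4 and 21.5 CPM in wild type and 13.1, 17.7 and 11.6 CPM with the deletion label. Its log2 fold change was -0.86 (SE 0.278, 95% interval -1.43 to -0.30), with adjusted p of 0.544 to 1 for NR_040708 over the same alternatives. The lack of overlap between the genotypes in these 4 accessions was required by the naming rule and is no support for a difference. The rule had 267 eligible accessions on the higher and 335 on the lower side, of which the first 2 by p were taken on each. No other tested accession had nearly the same counts as any of the 4 (within 10% of the larger total over the 24 libraries), so none of the 4 is a second copy of another row by that measure.

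**Figure D3:**
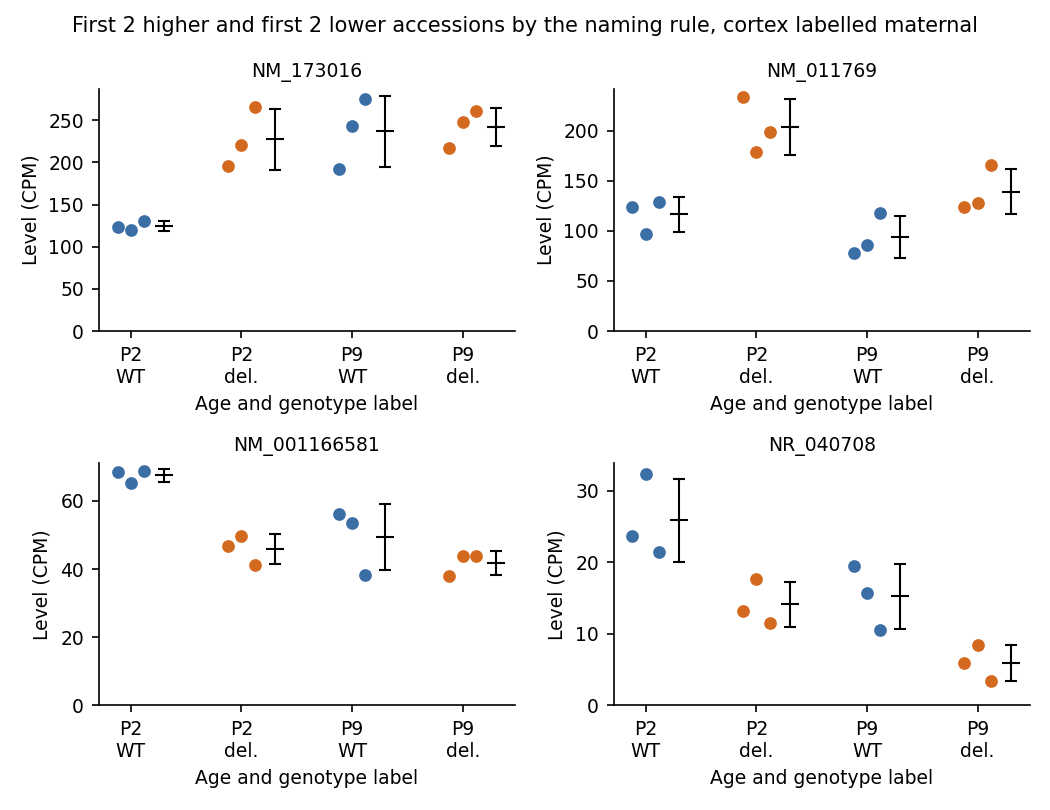
Level in CPM of 4 accessions in the cortex libraries labelled maternal, by age and genotype label, with each library as a point and the mean ± SD of 3 libraries as bars. At P2 the deletion libraries lie wholly above the wild-type libraries for NM_173016 and NM_011769 and wholly below for NM_001166581 and NR_040708. At P9 NM_173016 and NM_001166581 overlap between genotypes.

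Large fold changes included some that differed among libraries of the same genotype. Over all 8380 tested accessions, 58 were over 2-fold higher and 81 over 2-fold lower by the log2 fold change, of which 28 and 51 had no overlap between the groups. Most of these had a mean of under 20 counts, where values were least precise. This held for 44 of the 58 and 80 of the 81, and for 24 and 51 of those without overlap. Among accessions with a mean of at least 20 counts, 15 differed by over 2-fold between the group means, 14 of them higher with the deletion label. Of the 15, 4 had no overlap between the groups, where 11.3% of all tested accessions had none. A set of 8 accessions, 5 of them with a mean of at least 20 counts, was lowest of all 6 libraries in deletion replicate 1 and over 2-fold above every wild-type library in deletion replicates 2 and 3. This set was picked out after its values were seen and carries no test. Its summed level was 147, 98.2 and 124 CPM in wild type, 25.2 CPM in deletion replicate 1, and 710 and 761 CPM in deletion replicates 2 and 3. The most abundant of the set, NM_172469, also singled out after its values were seen, had 62.9, 49.9 and 43.0 CPM in wild type and 7.88, 270 and 329 CPM in the deletion libraries. In the libraries labelled maternal at P9 the summed level of the set ran from 32.5 to 285 CPM, and it was highest in wild-type replicate 3. No accession showed the mirrored pattern with deletion replicate 2 or 3 as the low library (0 each). The spread among the deletion libraries is what defined the set, and its part in other differences was not tested.

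A further accession singled out after its values were seen, NR_137294, was high in a single wild-type library at P2. It stood at 135 CPM in wild-type replicate 1 and between 2.68 and 10.3 CPM in the other 5 libraries. At P9 with the label maternal it was uneven in both genotypes. There it had 19.4 CPM in wild-type replicate 1 and 350 CPM in replicate 2, and 6264 CPM in deletion replicate 2 and 5.17 CPM in replicate 3. Its log2 fold change at P2 of -3.14 had a 95% interval of -9.43 to 3.15, so the large fold of NR_137294 at P2 came from a single library.

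Whole profiles were as alike between genotypes as within them. Spearman's rho between libraries over the tested accessions was 0.969 to 0.972 within wild type (3 pairs), 0.966 to 0.971 within deletion (3 pairs) and 0.965 to 0.973 between genotypes (9 pairs). The first principal component of the 6 libraries held 26.2% of the variance and set deletion replicate 3, at 28.7, apart from the other 5, which lay between -12.8 and 1.70. Deletion replicate 3 also had the fewest counts and was the lowest of the 6 libraries for 21.5% of accessions, against 16.7% if spread evenly. Among accessions with at least 20 counts, the median SD between replicates was 0.156 in wild type and 0.161 with the deletion label on the log2 scale, and the median size of the difference between genotype means was 0.105.

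Noncoding accessions stood lower in the deletion libraries at P2. They took 6.81%, 6.58% and 6.78% of counts in wild type and 6.43%, 6.49% and 6.09% with the deletion label. The groups did not overlap, at 6.73% ± 0.125 and 6.34% ± 0.213 (SD, n = 3 each), and the exact two-sided permutation test gave p = 0.1 (0.4 after Benjamini-Hochberg adjustment over 4 library measures), again with 0.1 the smallest possible. Of 857 tested NR_ accessions, 618 (72.1%) had a negative log2 fold change, against 55.0% of all accessions tested. The median over NR_ accessions was -0.17, and over the 7523 NM_ accessions it was -0.01. Deletion libraries lay wholly below wild type for 108 NR_ accessions (12.6%, against 6.74% of all tested) and wholly above for 16 (1.87%, against 4.52%). At an unadjusted edgeR p under 0.05, 30 NR_ accessions were lower (3.5%, against 1.8% of all) and 6 higher. These counts come from the same libraries as the share and are not separate support. In cortex labelled maternal at P9 the share was 5.42%, 5.79% and 4.50% in wild type and 4.63%, 5.28% and 4.69% with the deletion label, which overlap. With the label paternal at P2 it also overlapped, at 6.20% to 6.74% in wild type and 6.33% to 7.14% with the deletion label.

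This difference was not limited to rare transcripts. Between 20 and 50 mean counts the median log2 fold change was -0.15 for 190 NR_ and -0.02 for 1629 NM_ accessions. Between 200 and 1000 mean counts the medians were -0.12 for 53 NR_ and 0.01 for 1255 NM_ accessions. Above 1000 counts the 15 NR_ accessions had a median of 0.02, as did the 336 NM_ accessions. With each library left out in turn the median over NR_ accessions ran from -0.21 to -0.12. The number of accessions with at least 1 count, a measure that moves with depth, was 20171 to 21811 in wild type and 19309 to 20351 with the deletion label. Whether depth or RNA quality has a part in the lower noncoding share was not tested.

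**Figure D4:**
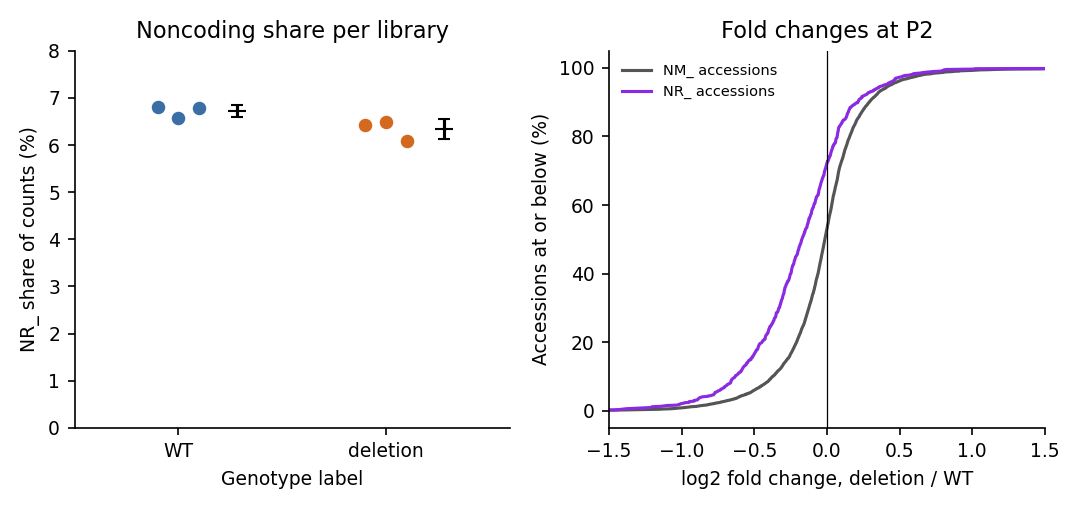
Left, share of all counts (in percent) taken by noncoding NR_ accessions in each of the 6 libraries, with the mean ± SD of 3 libraries as bars: 6.58% to 6.81% in WT and 6.09% to 6.49% with the deletion label. Right, cumulative share of accessions against log2 fold change (deletion over WT), where the NR_ curve lies left of the NM_ curve, with medians of -0.17 and -0.01.

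Position along the age axis was examined with accessions chosen in other libraries. In wild-type hypothalamus, 435 accessions were higher at P9 than at P2 (7.45% of 5840 tested) and 328 lower (5.62%), at a Benjamini-Hochberg adjusted edgeR p under 0.05. These lists were chosen after results of the series were known and are described without a test. Of the 432 age-raised accessions tested in cortex, 16 were higher (3.7%) and 1 lower with the deletion label at an unadjusted edgeR p under 0.05, against 1.42% and 1.8% of all accessions. Their median log2 fold change was 0.04. Of the 326 age-lowered accessions, 1 was higher and 8 were lower (2.45%), with a median of -0.05.

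The difference between genotypes was small beside the change with age itself. The mean log2 CPM of the age-raised list minus that of the age-lowered list was -0.81, -0.55 and -0.68 in the wild-type libraries and -0.50, -0.62 and -0.54 in the deletion libraries at P2. Wild-type replicate 2 lay above deletion replicate 2, so the groups overlapped. In cortex labelled maternal at P9 the same difference ran from 0.97 to 1.20. On the first principal component of all 24 cortex libraries (46.8% of variance), wild-type libraries at P2 lay at -14.3, -9.25 and -14.4, deletion libraries at -6.90, -5.19 and -0.88, and P9 libraries labelled maternal between 27.6 and 53.5. Libraries labelled paternal and P9 lay at the other end, between -61.8 and -37.9. On the age lists above these stood at -1.33 to -0.91, on the side of the maternal P2 libraries, so their age label may be exchanged with P2. The genotypes at P2 did not overlap on this component. The deletion libraries lay nearer than wild type to the P9 libraries labelled maternal, and farther from the libraries labelled paternal and P9, whose age is in doubt.

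The deletion effect at P2 was set against that at P9 in other libraries of the same label. The test of the difference between the ages called 0 accessions in edgeR (0%) with Benjamini-Hochberg adjustment, with 350 at an unadjusted p under 0.05 (4.18%; 1.09% higher and 3.09% lower) and 0 calls in DESeq2. The deletion effect at P9 alone had 784 accessions at an unadjusted edgeR p under 0.05 (9.36%) and 0 after adjustment. Without wild-type replicate 3 at P9, edgeR called 318 of the 7970 accessions tested with and without it at P9 after adjustment, NR_040708 among them (adjusted p = 0.0082). That library was left out after its values were seen. Of the 119 accessions higher at P2 at an unadjusted p under 0.05, 73 (61.3%) were also higher at P9, where 45.4% of all accessions were. Of the 151 lower at P2, 110 (72.8%) were also lower at P9, where 54.6% of all were, and 25 (16.6%) had an unadjusted edgeR p under 0.05 on the lower side at P9, against 7.48% of all accessions. The median log2 fold change at P9 was 0.07 for the first set and -0.20 for the second, against -0.03 over all accessions. Their medians at P2 are not compared with these, since the sets were chosen on P2 values. Wild-type replicate 3 at P9 had 6.29 CPM of Ube3a (NM_173010), below the 3 deletion libraries of that age (7.87 to 11.2 CPM), whereas the other P9 wild-type libraries had 27.5 and 37.2 CPM. Without it, 39 of the 142 lower accessions that could be compared (27.5%) had an unadjusted p under 0.05 on the lower side at P9, against 12.7% of all. Because the library was chosen on its values, neither the 318 calls nor this share is support for a difference.

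For the named accessions the values at P9 were as follows. The log2 fold change of Ube3a (NM_173010) at P9 was -1.29, with a 95% interval of -2.83 to 0.24 that includes 0. NM_173016 had 192, 244 and 275 CPM in wild type and 217, 248 and 261 CPM with the deletion label at P9, which overlap, and both groups stood near the P2 deletion libraries. The log2 fold change of NM_173016 at P9 was 0.03 (95% interval -0.30 to 0.36), and the difference between ages was -0.83 (95% interval -1.31 to -0.36). For this difference edgeR's quasi-likelihood test gave NM_173016 a Benjamini-Hochberg adjusted p of 0.998. NM_011769 kept its direction at P9 with 78.3, 86.1 and 117 CPM in wild type and 124, 128 and 165 CPM in deletion libraries, a log2 fold change of 0.57 (95% interval 0.15 to 0.99). NR_040708 had 19.4, 15.8 and 10.5 CPM in wild type and 5.87, 8.43 and 3.45 CPM with the deletion label at P9, a log2 fold change of -1.39 (95% interval -2.09 to -0.69). NM_001166581 had 56.2, 53.5 and 38.3 CPM in wild type and 37.9, 43.8 and 43.9 CPM with the deletion label at P9, which overlap. Its log2 fold change at P9 was -0.23 (95% interval -0.60 to 0.14). The groups of NM_011769 and NR_040708 did not overlap at either age.

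Averaged over both ages, the log2 fold change of NR_040708 was -1.13 (SE 0.22) and that of NM_011769 was 0.69 (SE 0.143), and their Benjamini-Hochberg adjusted p in edgeR were 0.0685 and 0.0865. It was 0.45 for NM_173016 (edgeR adjusted p = 0.173) and -0.39 for NM_001166581 (edgeR adjusted p = 0.269). These accessions were chosen on the P2 libraries that enter the average, so these values are no support for a difference. Over both ages the edgeR fit called 0 accessions (0%), with 758 at an unadjusted p under 0.05 (9.05%, with 2.1% higher and 6.95% lower). DESeq2 called 13 of the 6268 accessions to which it gave an adjusted p. Without wild-type replicate 3 at P9, the library singled out above on its values, edgeR called 220 of 8090 accessions over both ages, 15 higher and 205 lower. For Ube3a (NM_173010) the value over both ages was -0.83 (95% interval -1.85 to 0.19). Between the ages its log2 fold change differed by -0.93 (P9 less P2, 95% interval -2.97 to 1.12), an interval that includes 0.

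**Figure D5:**
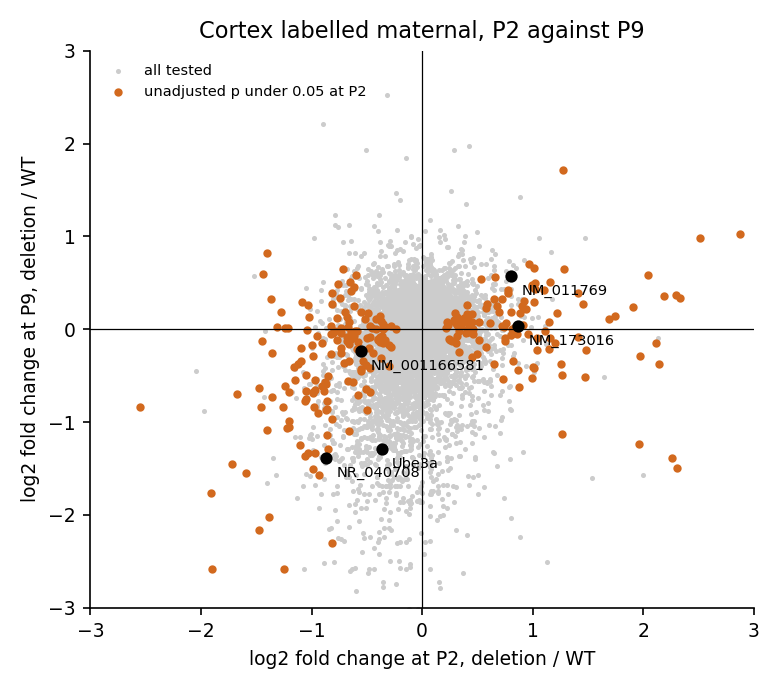
Log2 fold change (deletion over WT) at P9 against that at P2 for each tested accession in cortex labelled maternal, with axes limited to 3 on either side, which leaves 16 accessions outside. Orange marks an unadjusted edgeR p under 0.05 at P2 and black the named accessions; NM_011769 and NR_040708 lie in the same direction at both ages and NM_173016 lies near 0 at P9.

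The parental labels could be compared at P2 only across library series, since all cortex libraries labelled maternal carry names of one series and all labelled paternal of another. The difference of the 2 deletion effects, maternal less paternal, gave 0 calls in edgeR after Benjamini-Hochberg adjustment (0%), with 319 accessions at an unadjusted p under 0.05 (3.81%; 1.55% higher and 2.26% lower) and 0 calls in DESeq2. The effect labelled paternal alone had 275 such accessions (3.28%). NM_173016 had the lowest p of all accessions for this difference, at 1.12 on the log2 scale (SE 0.243, edgeR adjusted p = 0.75 after Benjamini-Hochberg adjustment). Its log2 fold change with the label paternal was -0.25 (95% interval -0.62 to 0.11). The difference for NM_001166581 was -0.75 (95% interval -1.28 to -0.22) and for NM_011769 0.87 (95% interval 0.23 to 1.52), neither past the adjusted threshold. For NR_040708 it was -0.73, with a 95% interval of -1.63 to 0.16 that includes 0. Apart from Ube3a, these accessions were chosen on the P2 libraries labelled maternal that enter the difference. Their distance from 0 is therefore no support for a difference between the parental labels. Ages in cortex labelled paternal may be exchanged: on the lists of accessions that changed with age in hypothalamus, its libraries labelled P2 lay at 0.64 to 0.91, near the maternal P9 libraries, and those labelled P9 at -1.33 to -0.91. With such an exchange, the parental difference above would set maternal libraries at P2 against paternal libraries at P9. The comparison within the label maternal would stay as it is, because each group has its own mean in the fit.

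In hypothalamus labelled maternal at P2, which has its own table and pups of the same parental label and age, the mean of NM_011769 was higher with the deletion label, without a call. Wild type stood at 259 ± 59.0 CPM and deletion at 409 ± 79.8 CPM (SD, n = 3 per group). The log2 fold change of NM_011769 there was 0.66 (95% interval 0.18 to 1.15). Its Benjamini-Hochberg adjusted p in edgeR was 0.9997. In hypothalamus labelled paternal at P2 it was 0.02 (95% interval -0.42 to 0.47). At P9 in hypothalamus labelled maternal, NM_011769 stood at 188 ± 49.0 CPM in wild type and 184 ± 77.1 CPM with the deletion label (SD, n = 3 per group), which overlap. NM_173016 (0.19, 95% interval -0.48 to 0.86), NM_001166581 (0.17, 95% interval -0.34 to 0.68) and NR_040708 (-0.36, 95% interval -1.75 to 1.02) had intervals that include 0 in hypothalamus labelled maternal.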

How the data were processed

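Per the labels' protocols, rRNA was depleted and a directional kit was used for the RNA. Per the submitters' processing notes, the tools include STAR and the builds rn6 and Rnor_6.0. Not given in the sources used here are the counter, its annotation and its strand setting. The deposited table holds raw whole-number counts per RefSeq accession, and 0 per-sample columns were left unmapped. Groups follow the labels, and replicate numbers were assigned in record order and pair nothing. In R 4.3.3, edgeR 4.0.16 fitted all 24 cortex libraries with 1 mean per group (TMM scaling, filterByExpr, robust quasi-likelihood, two-sided tests, Benjamini-Hochberg adjustment over 8380 accessions, 16 residual degrees of freedom). The common biological coefficient of variation was 13.3%. DESeq2 1.42.0 and limma 3.58.1 were alternatives, and the edgeR script was tested on simulated data. The least different pair of the 6 libraries had a chi-square per degree of freedom of 2.21, so none was counted as a repeat.

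The accessions, comparisons and lists were chosen with earlier results of these data known. Named accessions are Ube3a and, in each direction, the 2 of lowest p among those with a mean of at least 20 counts and no overlap between genotypes, plus the 2 said to be singled out. The 24 gene lists by symbol (520 symbols) matched 0 counted accessions and gave no result. Methylation tables are of hypothalamus and were not used here. Figures were drawn with matplotlib 3.10.9.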

Additional observations from a re-analysis of the deposited data

How the results depend on the processing

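Calls for the deletion effect at P2 depended on the filter, the tool and the libraries fitted. The number of accessions tested also changed with the libraries fitted. It was 8380 in the fit reported, 7323 with only the 6 libraries and 8014 with only the 12 libraries labelled maternal. With the libraries labelled maternal less wild-type replicate 3 at P9 it was higher, at 8434. In place of 0, edgeR called 1 accession with only the 12 libraries labelled maternal, 2 with only the 6 libraries, 2 with the libraries labelled maternal less wild-type replicate 3 at P9 (chosen after seeing the data) and 7 with no filter on low counts, and DESeq2 called 1; every one was higher with the deletion label. Leaving out 1 of the 6 libraries gave 0 to 3 calls, the 3 without deletion replicate 1. The count at an unadjusted p under 0.05, 270 in the fit reported, was 1016 with no filter and 151 with a mean of at least 20 counts. It was 405 with only the 6 libraries and 467 with the libraries labelled maternal less that P9 library. The parental difference gave 1 call with no filter and 1 with only the 12 libraries at P2, and 0 with any library left out. The effect over both ages gave 45 calls with no filter, 13 in DESeq2 and 0 to 220 with a library left out, the 220 without wild-type replicate 3 at P9 and 1 without deletion replicate 1 at P2. At an unadjusted p under 0.05, no filter and a mean of at least 20 counts gave 1167 and 195 accessions for the difference between ages (350 in the fit reported), 1036 and 187 for the parental difference (319) and 1925 and 429 over both ages (758). Leaving out a library gave 182 to 700 for the difference between ages and 391 to 1212 over both ages (lowest without wild-type replicate 2 and highest without wild-type replicate 3 at P9), and libraries labelled paternal at P9 in place of P2 gave 480 for the parental difference. The cause of these changes was not tested. The difference between ages gave 0 calls in all 19 alternatives. The log2 fold change of Ube3a (NM_173010) at P2 ran from -0.53 to -0.20 over 15 alternatives and was called in none, and its parental difference turned to 0.70 with libraries labelled paternal at P9 in place of P2. NM_173016 ran from 0.73 to 0.96 and NM_011769 from 0.68 to 0.89 at P2, with the same sign in all 15. The median over NR_ accessions was 0 with no filter. No paired analysis was possible because the labels carry no replicate numbers. The alternative of 1 accession per gene was not run, since no accession has a gene name.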
